A study of Mus musculus with 12 samples.

Results

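The mitochondrial respiratory chain is a row of protein complexes in the inner membrane that passes electrons to oxygen and pumps protons. Complex I takes electrons from NADH and complex II from succinate, both hand them to ubiquinone, complex III moves them from ubiquinol to cytochrome c, and complex IV gives them to oxygen. Most subunits are encoded in the nucleus, and mouse embryonic stem (ES) cells, which draw much of their ATP from glycolysis, still keep an active chain. The genes described here are the nuclear genes of complexes I to IV and the complex I assembly factors that share their name stem. They were chosen by symbol, as every gene of the deposited table whose name begins with Nduf or Uqcr, is Sdha, Sdhb, Sdhc or Sdhd, or begins with Cox4 to Cox8, without pseudogene names. This gave 76 genes of 26742: 44 of complex I (7 core subunits, 29 accessory subunits and 8 assembly factors), 4 of complex II, 8 of complex III, and 20 named for complex IV (11 ubiquitous subunits, 8 tissue isoforms and Cox7a2l). Ndufa4 and Ndufa4l2 were counted with complex IV, where the Ndufa4 protein is now placed. The mitochondrially encoded subunits could not be followed, since each of the 13 mitochondrial genes listed has 0 counts throughout.

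RNA was sequenced from male mouse ES cells with the genotype label 129 or B6J, the second read here as C57BL/6J. All were grown in KO-DMEM with serum and LIF (leukaemia inhibitory factor). The 4 groups were 129 cells given the MEK inhibitor PD 0325901 (iMEK), 129 cells given its solvent DMSO, B6J cells given the inhibitor and B6J cells given DMSO, with 3 libraries each. The inhibitor was at 1 µM and was added daily from day 0 to day 5; it blocks the kinase that activates ERK and is a part of the usual naive culture media. The labels name neither clones nor lines, so what belongs to the 129 or B6J genome and what belongs to the particular cells used cannot be told apart. They also do not say whether replicates were separate cultures, and the p-values then measure a spread that may be technical.

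Libraries held between 62634533 and 96341637 counts, and the 76 genes took 0.572 to 0.719% of the scaled total. In each group 1 library was farther from the other two than these were from each other, by chi-square on the counts: replicate 1 of 129 with the inhibitor, replicate 1 of 129 with DMSO, replicate 3 of the B6J inhibitor group, and in the B6J DMSO group replicate 1. CPM are read counts relative to the TMM-scaled library size. ES cell markers moved with the treatment: of 10, 6 rose and 0 fell under the inhibitor in 129, and 5 rose and 1 fell in B6J. Their summed level was 4935 to 5079 CPM in 129 with the inhibitor, against 2883 to 4114 CPM in 129 with DMSO, and 4898 to 5171 CPM in B6J with the inhibitor, against 3797 to 4746 CPM in B6J with DMSO. Of these, Zfp42 was far lower in B6J than in 129 in both media (67.4 ± 8.23 CPM in B6J and 481 ± 24.6 CPM in 129 with the inhibitor, 35.7 ± 0.843 CPM in B6J and 289 ± 33 CPM in 129 with DMSO; SD, n = 3). Fibroblast markers moved as well: 16 of 20 were called higher under the inhibitor in 129 and 13 of 20 in B6J. Their summed level was 6181 to 9728 CPM in 129 with the inhibitor, against 2536 to 4928 CPM in 129 with DMSO, and 5793 to 9521 CPM in B6J with the inhibitor, against 3745 to 4452 CPM in B6J with DMSO. Replicate 1 of 129 with DMSO also held 6116 CPM of 10 primitive endoderm markers, against 667.4 to 1426 CPM in the other 11 libraries. Libraries further differed in how level followed transcript length, and these genes are short (median 738.5 bases): the length trend at their lengths was 0.105 to 0.148 on the log2 scale in 129 with the inhibitor, -0.075 to 0.012 in 129 with DMSO, -0.014 to 0.018 in B6J with the inhibitor and -0.152 to -0.063 in B6J with DMSO.

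Levels per kilobase of transcript, averaged over the 12 libraries, differed between the complexes in their medians, while the ranges of complexes I, II and III overlapped. The ubiquitous complex IV subunits, from 138 to 473 CPM per kb, overlapped with complexes I and III and lay above complex II. The ubiquitous complex IV subunits had a median of 222 CPM per kb and complex III 178, complex II had 106, the core and accessory subunits of complex I had 60 and 74.1, the complex I assembly factors 13.1 and the complex IV tissue isoforms 0.861. The highest gene was Cox4i1, the ubiquitous form of the regulatory subunit 4, at 473 CPM per kb, and the lowest was Cox8b at 0.0473 CPM per kb, a heart and muscle isoform. Uqcrh, the hinge protein of complex III, led its complex at 318 and Uqcrfs1, the Rieske iron-sulphur protein, was its lowest at 65.6. In complex I Ndufa7 was highest at 298 and Ndufb2 lowest at 5.41 among accessory subunits, and in complex II Sdhd, a membrane anchor, was highest at 124 and Sdhc, the other anchor, lowest at 49.2. The Ndufb2 level rests on a length of 2413 bases, and in CPM Ndufb4 was lower in every library. For Ndufv3 the length used, 645 bases, is under its longest coding sequence of 1404 bases. Levels per kb are thus uncertain for single genes. Ndufb2, Ndufb8 and Ndufb9 share exon bases with a neighbour on the same strand, and 23 members overlap an exon of a gene on the opposite strand; the library kit marks strand, but how strand was used in counting is not given in the sources used here.

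The question of the first comparison is what MEK inhibition does to these genes in each background. In 129 cells given the inhibitor 25 of the 75 tested members rose and 1 fell, where 17.4% of all 16627 tested genes rose and 18.2% fell (35.7% in either direction). In B6J cells given the inhibitor 16 rose and 2 fell, where 14.6% of all tested genes rose and 16.5% fell (31.1% in either direction). The median log2 fold change of the members was 0.19 in 129 and 0.06 in B6J, beside -0.01 and 0.00 for all tested genes. With the trend of level on transcript length removed these medians were 0.07 in 129 and -0.02 in B6J, and the B6J median was 0.14 without replicate 1 and 0.03 without replicate 3 of B6J with DMSO. Most changes were small: the largest rise of a ubiquitously used subunit outside Ndufs5 was 0.67, for Cox5a in B6J. The 2 responses share no library, and 13 genes rose in both, 52% of those that rose in 129 and 81.2% of those that rose in B6J. They were Cox5a, Cox6a1, Cox6b1, Cox6b2 and Cox8a of complex IV, Uqcr10 of complex III, and Ndufa11, Ndufb4, Ndufb5, Ndufb10, Ndufv1, Ndufv3 and Ndufaf5 of complex I. Ndufaf4 fell in both. The overlap over all tested genes was not counted, so the 52% and 81.2% are not read as particular to these members. Fewer cells of a type and less RNA per cell cannot be told apart in bulk RNA.

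**Figure D1:**
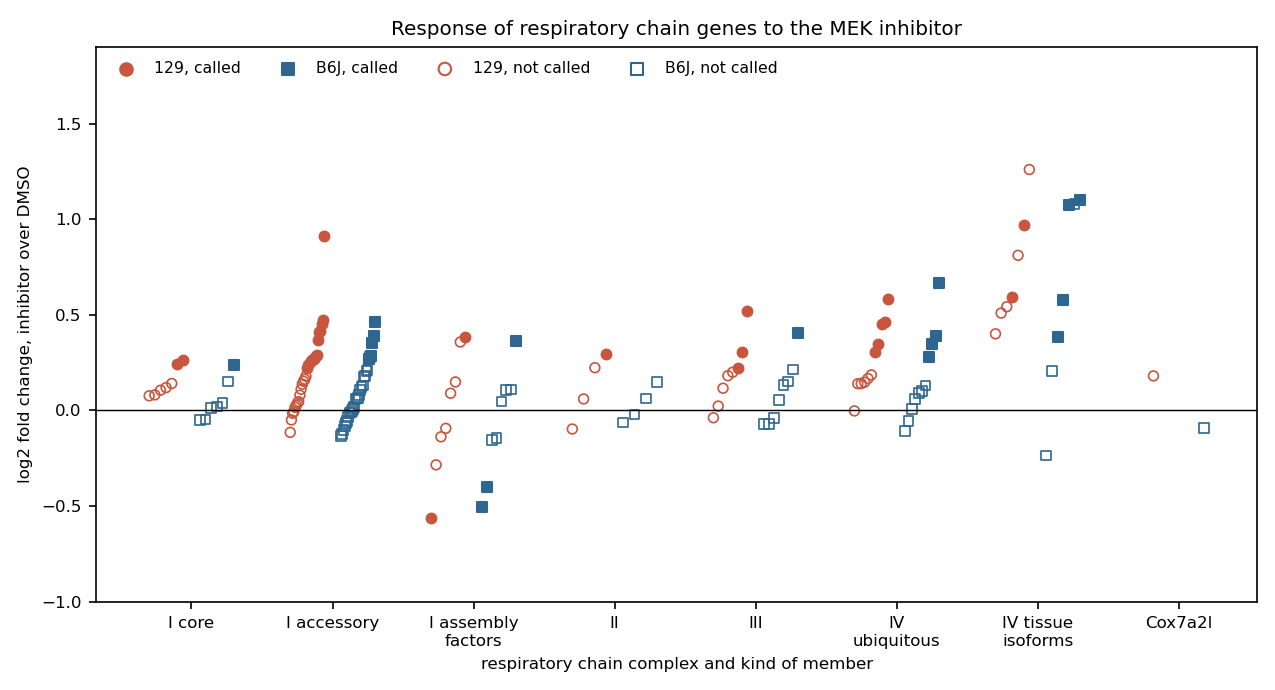
Log2 fold change of inhibitor over DMSO (vertical axis) for each of the 75 tested members, in 129 (circles) and in B6J (squares), by complex and kind of member (horizontal axis); filled marks were called at an adjusted p under 0.05. The calls lie above 0 in every column other than the complex I assembly factors, which hold the 3 falls, and none lies in the column of Cox7a2l.

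These counts depend on how the libraries are compared, and the plot of counts by way of fitting shows it. With the length trend of each library removed, 10 members rose and 3 fell in 129, and 5 rose and 5 fell in B6J. With the mean level of the fibroblast markers as a covariate, 6 rose and 1 fell in 129, and 6 rose and 0 fell in B6J. Their mean log2 CPM was 6.515 to 7.107 in 129 with the inhibitor and 5.26 to 6.191 in 129 with DMSO. In B6J it was 6.461 to 7.084 with the inhibitor and 5.775 to 6.08 with DMSO. The covariate thus moved with the treatment, so a call lost with it does not tell fibroblast RNA from a response to the inhibitor. Without the 4 libraries that stand apart, 28 rose and 3 fell in 129, and 30 rose and 2 fell in B6J. That fit keeps the libraries most alike in each group, so its spread is narrowed by choice and more calls can follow from this alone. The share of all genes called in it is not given here, so these counts are not read as a result about the members. Cox5a and Ndufaf5 rose in 129 in all 26 alternatives tried, as did Ndufs5, Ndufv3 and Uqcr10. In B6J Cox5a and Cox4i2 did so, and Ndufaf4 fell in all 26 in 129. These alternatives include fits that leave out a library of the other background, which bears on the response mostly through the shared spread. In replicate 1 of B6J with DMSO 69 of the 75 members had their highest value of that group, and in replicate 1 of 129 with the inhibitor 61 of 75 did. Single libraries also moved the counts: 14 members rose in 129 without replicate 2 of 129 with DMSO, and 6 rose in B6J without replicate 3 and 8 without replicate 2 of B6J with DMSO. Of the 2 falls in B6J, both lost their call when replicate 2 of the B6J inhibitor group was left out, and 1 did when its replicate 3, or a DMSO library numbered 2 or 3, was left out. In 129 a further member fell without replicate 1 of 129 with DMSO. The length trend likewise moved with the treatment in both backgrounds. A call lost with it removed thus does not tell a length bias of the libraries from a response that follows length. The parts of transcript length and of fibroblast RNA in the rises were not tested.

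**Figure D2:**
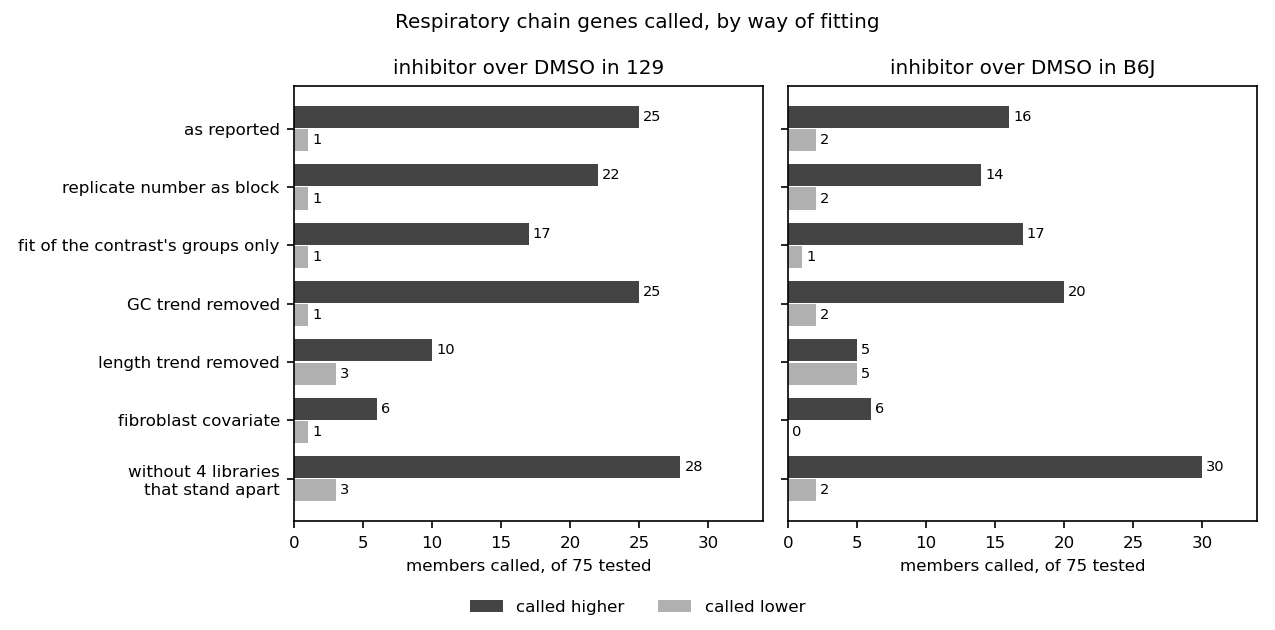
Number of members called higher (dark bars) and lower (light bars) under the inhibitor, of 75 tested, in 129 (left) and B6J (right), for the reported fit and 6 other ways of fitting (rows). The number called higher is 25 and 16 as reported, 10 and 5 with the length trend removed, and 6 and 6 with the fibroblast covariate.

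Of the 11 ubiquitous subunits of complex IV, cytochrome c oxidase, 5 (45.5%) rose in 129 and 4 (36.4%) in B6J, and none fell. Of all tested genes 17.4% rose and 18.2% fell in 129, and 14.6% rose and 16.5% fell in B6J. Cox5a, a matrix-side subunit next to subunit 4, had 128, 108 and 123 CPM in 129 with the inhibitor, against 75.6, 77.5 and 87 CPM in 129 with DMSO. In B6J it had 116, 120 and 114 CPM with the inhibitor, against 82.3, 71.2 and 67.5 CPM with DMSO. The inhibitor libraries lay above the DMSO libraries without overlap in both backgrounds, and the log2 fold changes were 0.58 (SE 0.09, adjusted p = 0.000527) in 129 and 0.67 (SE 0.09, adjusted p = 0.000214) in B6J. Cox5a overlaps the exons of Gm26631 on the opposite strand over 269 bases.

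Cox6a1, the ubiquitous form of subunit 6a, had 220, 176 and 172 CPM in 129 with the inhibitor and 145, 133 and 137 CPM with DMSO, and in B6J 174, 172 and 189 CPM with the inhibitor and 150, 133 and 126 CPM with DMSO. Replicate 1 was the highest library of 129 with the inhibitor and of B6J with DMSO, and no inhibitor library overlapped its DMSO group. It rose by 0.45 (SE 0.10, adjusted p = 0.00442) in 129 and by 0.39 (SE 0.10, adjusted p = 0.0113) in B6J on the log2 scale.

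Cox8a, the small membrane subunit 8, had 199, 176 and 180 CPM in 129 with the inhibitor and 138, 127 and 137 CPM with DMSO, and 161, 165 and 173 CPM in B6J with the inhibitor and 149, 126 and 118 CPM with DMSO. No inhibitor library overlapped its DMSO group, and the log2 fold changes were 0.46 (adjusted p = 0.0018) and 0.35 (adjusted p = 0.0103). Cox6b1, which faces the intermembrane space, had 223, 190 and 203 CPM in 129 with the inhibitor and 177, 150 and 158 CPM with DMSO, and 182, 187 and 194 CPM in B6J with the inhibitor and 166, 148 and 151 CPM with DMSO. It rose by 0.35 (adjusted p = 0.00687) in 129 and 0.28 (adjusted p = 0.0237) in B6J. Cox4i1 had 430, 361 and 368 CPM in 129 with the inhibitor and 319, 301 and 316 CPM with DMSO, and 371, 376 and 386 CPM in B6J with the inhibitor and 392, 336 and 327 CPM with DMSO. Its libraries separated in 129, where it rose by 0.31 (adjusted p = 0.015), and overlapped in B6J (0.10, adjusted p = 0.399). The calls of Cox6a1 and Cox6b1 were lost in both backgrounds, and that of Cox4i1 in 129, both with the length trend removed and with the fibroblast covariate. Cox8a lost its call with the covariate in 129 (adjusted p = 0.0926) and in B6J (adjusted p = 0.138), and with the length trend removed in B6J (adjusted p = 0.0983). The other ubiquitous subunits, Cox5b, Cox6c, Cox7a2, Cox7b, Cox7c and Ndufa4, were not called in either response, with log2 fold changes from -0.11 (Ndufa4 in B6J) to 0.19 (Cox5b in 129). Ndufa4 had 186, 134 and 141 CPM in 129 with the inhibitor and 164, 145 and 153 CPM with DMSO, and 143, 138 and 144 CPM in B6J with the inhibitor and 166, 142 and 150 CPM with DMSO, with overlap in both. Cox7b had 199, 165 and 177 CPM in 129 with the inhibitor and 159, 157 and 166 CPM with DMSO, and 181, 170 and 169 CPM in B6J with the inhibitor and 173, 168 and 158 CPM with DMSO, again with overlap.

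**Figure D3:**
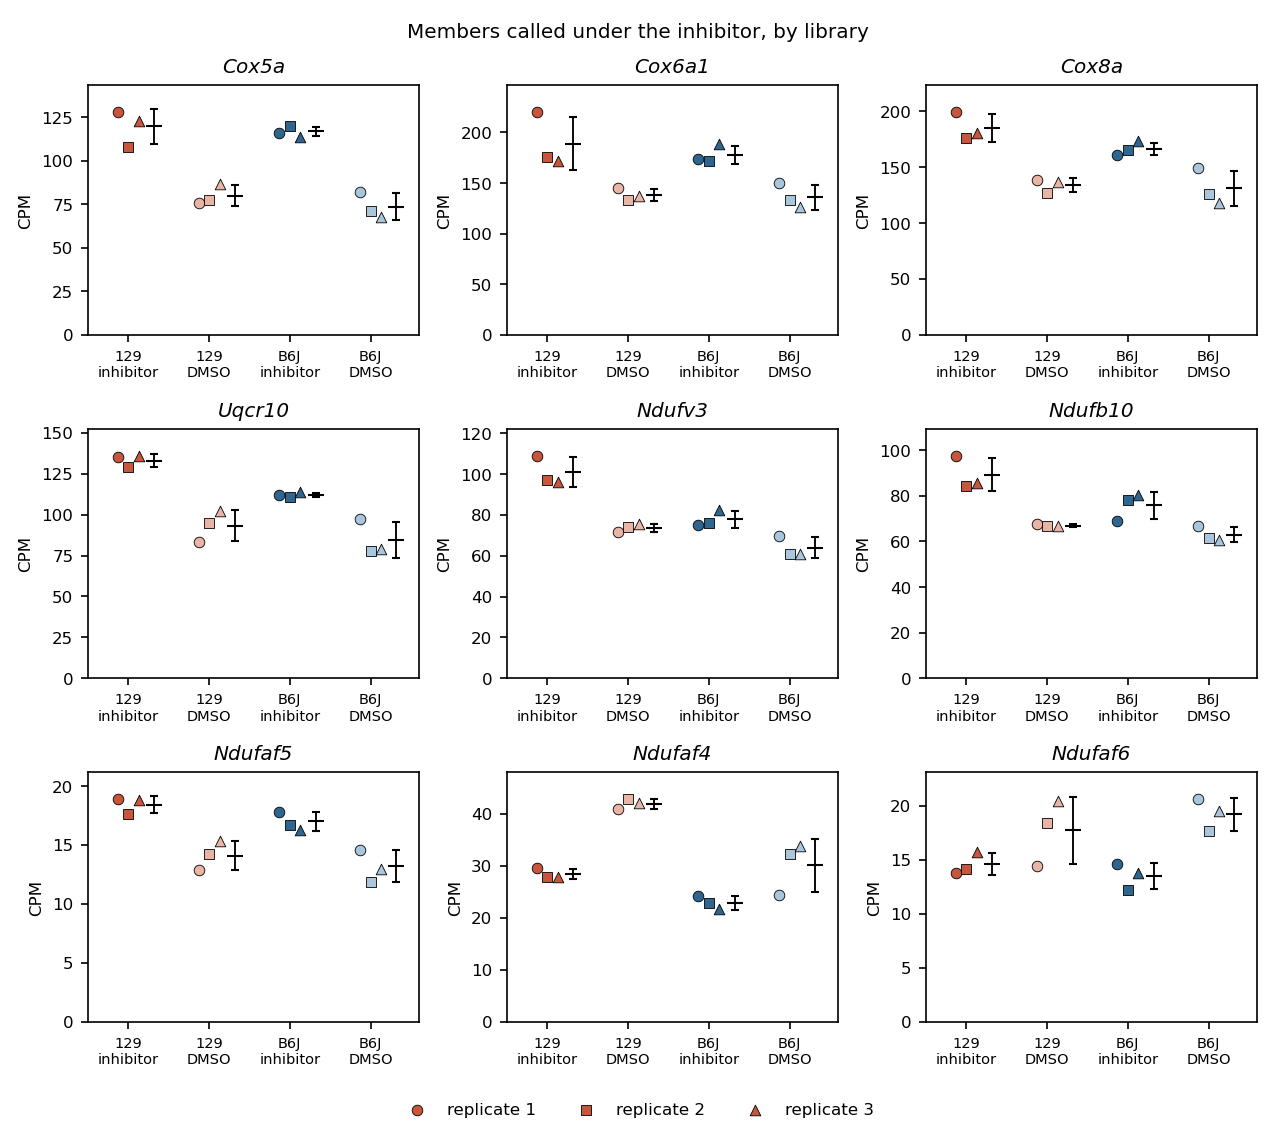
CPM per library (vertical axis of each panel, from 0) of 9 members called under the inhibitor, in 129 with inhibitor and DMSO and B6J with inhibitor and DMSO; symbols mark the replicate, and bars the mean ± SD of 3 libraries. Cox5a, Uqcr10 and Ndufv3 lie higher in the inhibitor libraries of both backgrounds without overlap, and Ndufaf4 lies lower.

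The promoters of genes that moved in opposite directions are shown because nuclear respiratory factor 1 (NRF1) is known to bind many promoters of respiratory chain genes. In the 300 bases around each start (250 before and 50 after) RefSeq promoters were found for 61 of the 76 members. The following are 5′ to 3′ on the gene's strand in GRCm38.p6, with capitals for matches on either strand to the NRF1 letters CGCATGCG, the ETS factor letters CCGGAAG and the SP1 letters GGGCGG. Cox6a1 rose in both backgrounds (chr5:115348909-115349208, minus strand), Ndufaf4 fell in both (chr4:24897833-24898132, plus strand), and Cox5a rose in both (chr9:57520982-57521281, plus strand).
Cox6a1: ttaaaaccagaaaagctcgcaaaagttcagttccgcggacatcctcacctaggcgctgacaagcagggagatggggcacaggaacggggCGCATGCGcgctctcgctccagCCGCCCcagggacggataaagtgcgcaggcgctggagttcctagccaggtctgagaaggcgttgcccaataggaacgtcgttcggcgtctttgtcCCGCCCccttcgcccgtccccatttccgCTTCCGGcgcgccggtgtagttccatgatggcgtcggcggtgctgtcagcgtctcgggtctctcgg
Ndufaf4: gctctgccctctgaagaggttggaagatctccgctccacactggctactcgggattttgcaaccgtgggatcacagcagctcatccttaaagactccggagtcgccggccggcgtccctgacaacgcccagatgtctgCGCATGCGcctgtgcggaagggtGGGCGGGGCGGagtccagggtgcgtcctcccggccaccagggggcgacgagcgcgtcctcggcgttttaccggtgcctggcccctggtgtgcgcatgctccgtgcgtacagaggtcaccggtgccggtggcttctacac
Cox5a: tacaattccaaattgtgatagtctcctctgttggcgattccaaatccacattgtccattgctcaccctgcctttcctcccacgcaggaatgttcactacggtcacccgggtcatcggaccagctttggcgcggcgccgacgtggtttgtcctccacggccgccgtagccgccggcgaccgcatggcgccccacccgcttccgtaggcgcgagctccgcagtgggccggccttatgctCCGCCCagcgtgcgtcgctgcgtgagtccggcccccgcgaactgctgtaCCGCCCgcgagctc

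The NRF1 letters stand in a promoter of a gene that rose and in one of a gene that fell, and these letters were not found in the Cox5a window. Of members with a promoter, 4 of 22 (18.2%) that rose in 129 held them, against 3 of 38 (7.89%) not called higher in 129. In B6J 3 of 14 (21.4%) that rose held them. Whether the letters go with the direction of change was not tested. Over all members with a promoter 7 of 61 (11.5%) held the NRF1 letters, 13 (21.3%) the ETS letters and 29 (47.5%) the SP1 letters. Among the 12608 tested genes with a promoter the shares were 3.7, 17.2 and 64.1%. The letters AAGATGGC of YY1 stood in 13.1% of the member promoters and 4.45% of those of tested genes, TGACGTCA of the cAMP response element in 6.56% and 3.32%, and AAGGTCA of the oestrogen-related receptors in 6.56% and 4.14%. Both strands were searched and matches could overlap, as the 2 SP1 matches of Ndufaf4 do. A match is a description of the sequence and not a binding site.

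The tissue isoforms of complex IV replace a ubiquitous subunit in heart and muscle (Cox6a2, Cox7a1, Cox8b), testis (Cox6b2, Cox7b2, Cox8c) or lung (Cox4i2), and Ndufa4l2 is a hypoxia-induced relative of Ndufa4. Of 7 tested, 2 (28.6%) rose in 129 and 4 (57.1%) in B6J, beside 17.4% and 14.6% of all tested genes. Cox6b2 was by far the most abundant, at 59.9 CPM per kb, and made up 13.7 ± 1.31% of the Cox6b1 and Cox6b2 level per length in 129 with the inhibitor and 11.8 ± 0.672% in 129 with DMSO, and 15.8 ± 0.561% in B6J with the inhibitor and 14.9 ± 0.399% in B6J with DMSO (SD, n = 3). It had 33.3, 28.9 and 25.1 CPM in 129 with the inhibitor, against 19.8, 19.1 and 18.9 CPM with DMSO, and 31.4, 32.3 and 31.1 CPM in B6J with the inhibitor, against 26.2, 23.7 and 22.8 CPM with DMSO. Inhibitor libraries were higher than DMSO libraries in both backgrounds, and the log2 fold changes were 0.59 (SE 0.10, adjusted p = 0.000826) and 0.38 (SE 0.10, adjusted p = 0.0121). With the fibroblast covariate they were 0.44 and 0.27, with adjusted p of 0.0584 and 0.16.

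Cox4i2 stood at a low level and rose in B6J, with 0.886, 0.79 and 0.788 CPM under the inhibitor and 0.453, 0.433 and 0.256 CPM in DMSO. The groups did not overlap, and the log2 fold change was 1.10 (SE 0.28, adjusted p = 0.0102), a call kept under every alternative run. In 129 it had 0.69, 0.86 and 0.836 CPM with the inhibitor and 0.384, 0.616 and 0.64 CPM with DMSO (0.54, adjusted p = 0.145), and the 2 responses did not differ past the threshold (difference 0.56, adjusted p = 0.619). Cox4i2 made up 0.225 ± 0.019% of the subunit 4 pair in B6J with the inhibitor and 0.111 ± 0.027% with DMSO.

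Ndufa4l2 had 9.48, 8.12 and 6.35 CPM in B6J with the inhibitor and 6.09, 2.96 and 2.31 CPM with DMSO (1.07, SE 0.37, adjusted p = 0.0475). In 129 it had 9.35, 9.31 and 8.27 CPM with the inhibitor and 3.28, 7.77 and 7.88 CPM with DMSO (0.51, adjusted p = 0.307). The replicate 1 libraries of both DMSO groups stood apart from the other two, low in 129 and high in B6J, and they are among the 4 libraries that differ in their counts as a whole. Ndufa4l2 lost its B6J call in 11 of 26 alternatives. With all libraries its 2 responses did not differ past the threshold (difference 0.57, adjusted p = 0.716). Without the 4 libraries its response was larger in B6J than in 129 (difference 1.55, adjusted p = 0.000754). The fit without them was added after seeing the data and leaves out both of these DMSO libraries.

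Cox7a1 rose in B6J, where it had 6.15, 5.91 and 4.95 CPM with the inhibitor and 4.78, 3.32 and 3.28 CPM with DMSO, without overlap (0.58, SE 0.18, adjusted p = 0.0297). In 129 it had 5.45, 5.86 and 5.8 CPM with the inhibitor and 3.9, 5.21 and 3.85 CPM with DMSO (0.40, adjusted p = 0.104). The call in B6J was lost with the length trend removed (adjusted p = 0.104) and without any of 4 B6J libraries taken singly. With the fibroblast covariate Cox4i2, Cox7a1 and Ndufa4l2 were called higher in B6J.

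Cox7b2 had 0.994, 0.966 and 0.642 CPM in 129 with the inhibitor and 0.549, 0.336 and 0.437 CPM with DMSO, and rose by 0.97 (SE 0.34, adjusted p = 0.0438), a call lost in 10 of 25 alternatives. In B6J it had 0.38, 0.207 and 0.273 CPM with the inhibitor and 0.227, 0.168 and 0.351 CPM with DMSO, and these libraries overlapped. Cox6a2 and Cox8c were at or under 0.362 CPM in every library and were not called in any comparison. Cox8b had at most 0.042 CPM and was too low to test. Of 10 striated muscle markers summed, the level was 45.58 to 53.96 CPM in 129 with the inhibitor, 61.7 to 81.83 CPM in 129 with DMSO, 24.39 to 44.48 CPM in B6J with the inhibitor and 36.94 to 42.93 CPM in B6J with DMSO. The summed level of 7 germ cell markers was 20.49 to 35.35 CPM in 129 with the inhibitor, 20.2 to 36.62 CPM in 129 with DMSO, 25.79 to 45.73 CPM in B6J with the inhibitor and 45.8 to 53.4 CPM in B6J with DMSO. Their part in the isoform levels was not tested.

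**Figure D4:**
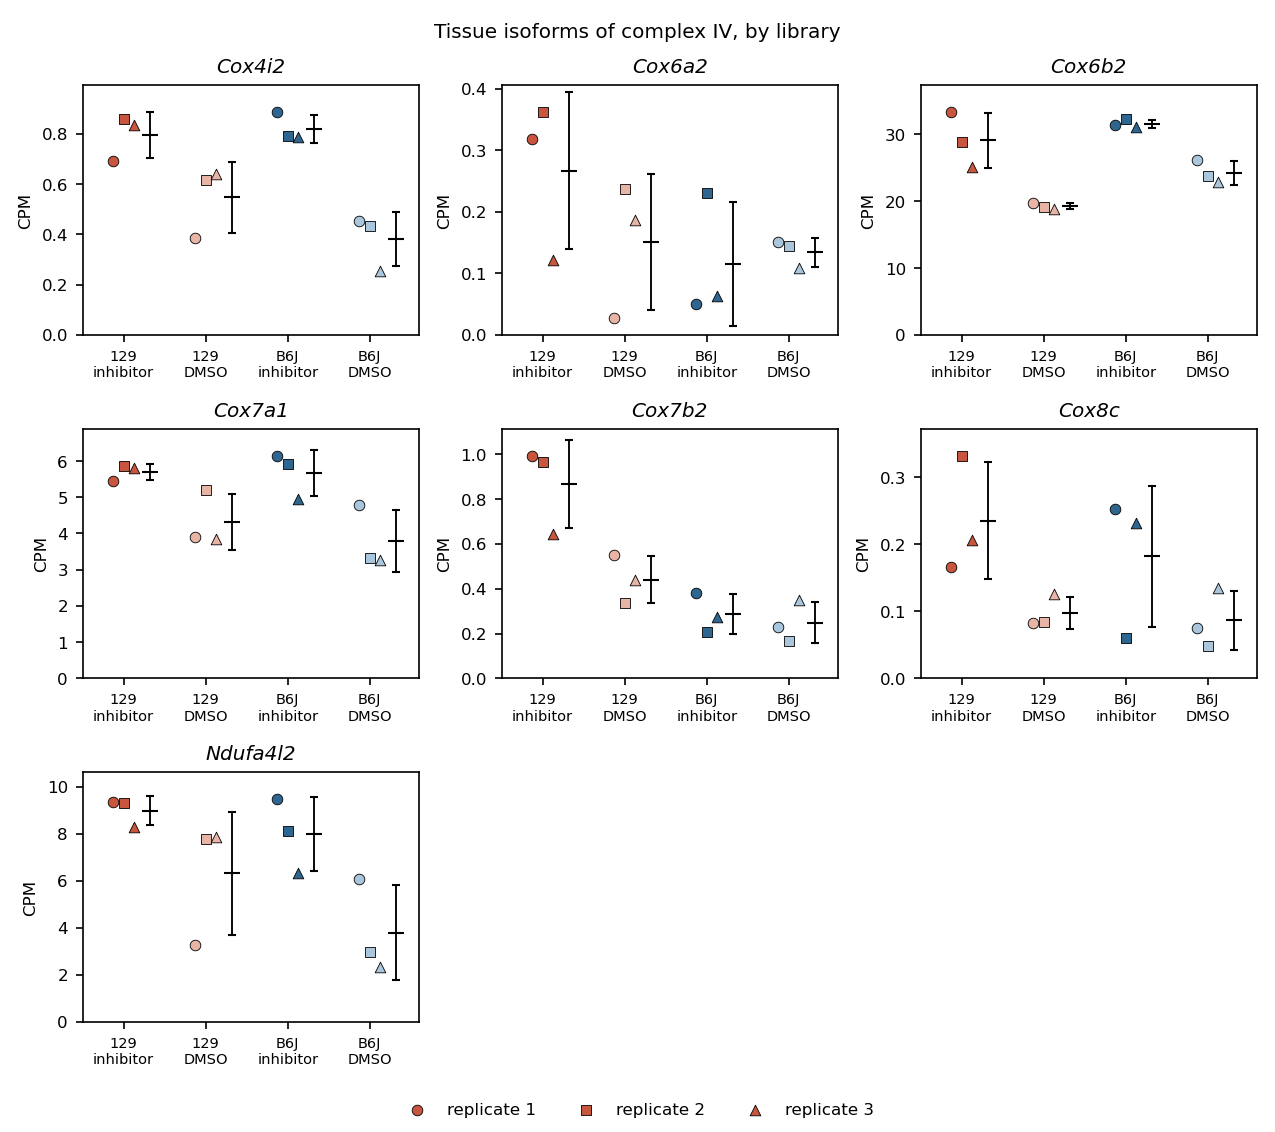
CPM per library (vertical axis of each panel, from 0, with a scale of its own) of the 7 tested tissue isoforms of complex IV, in 129 with inhibitor and DMSO and B6J with inhibitor and DMSO; symbols mark the replicate, and bars the mean ± SD of 3 libraries. Cox6b2 lies above 18 CPM in every library, while Cox4i2, Cox6a2, Cox7b2 and Cox8c lie under 1 CPM.

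In complex III 3 of 8 members (37.5%) rose in 129 (Uqcr10, Uqcrb and Uqcrc1) and 1 (12.5%) in B6J (Uqcr10). Of all tested genes 17.4% rose in 129 and 14.6% in B6J, so the B6J share was near that of all genes. Uqcr10, a small subunit next to cytochrome c1, had 135, 129 and 136 CPM in 129 with the inhibitor, against 83.1, 94.8 and 102 CPM with DMSO. In B6J it had 112, 111 and 114 CPM with the inhibitor, against 97.5, 77.7 and 78.8 CPM with DMSO. The groups did not overlap in either background, and the log2 fold changes were 0.52 (SE 0.10, adjusted p = 0.00154) and 0.41 (SE 0.10, adjusted p = 0.00728). Uqcr10 and Uqcrb each have an annotated near-identical copy, so their counts are uncertain. Uqcrb, which lies at the ubiquinone site, rose by 0.31 in 129 (adjusted p = 0.00983) and Uqcrc1, a core protein, by 0.22 (adjusted p = 0.0443; 0.0615 with replicate number as a block within each background). Uqcrb lost its call with the length trend removed and with the fibroblast covariate. The Rieske protein Uqcrfs1, core protein Uqcrc2 and hinge protein Uqcrh had log2 fold changes of 0.02, -0.04 and 0.12 in 129 and -0.07, -0.04 and -0.07 in B6J, and were not called. Uqcrh had 159, 136 and 148 CPM in 129 with the inhibitor and 151, 126 and 133 CPM with DMSO, and 161, 155 and 151 CPM in B6J with the inhibitor and 177, 159 and 155 CPM with DMSO. Uqcrfs1 had 100, 89.2 and 97.8 CPM in 129 with the inhibitor and 92.8, 90.1 and 100 CPM with DMSO, and 80.5, 81 and 83.3 CPM in B6J with the inhibitor and 95.6, 83 and 78.7 CPM with DMSO. Both overlapped between inhibitor and DMSO. Uqcr11 and Uqcrq, small subunits, had 0.20 and 0.18 in 129 and 0.21 and 0.06 in B6J and were not called. Neither Cyc1, the cytochrome c1 subunit that the name rule leaves out, nor Cycs, the cytochrome c that it reduces, was called.

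Among the core subunits of complex I, Ndufv1 rose in both backgrounds. Ndufv1, which binds FMN and takes electrons from NADH, had 157, 150 and 145 CPM in 129 with the inhibitor, against 118, 127 and 131 CPM with DMSO, and 131, 134 and 143 CPM in B6J with the inhibitor, against 126, 113 and 107 CPM with DMSO. No inhibitor library overlapped its DMSO group, and the log2 fold changes were 0.26 (SE 0.07, adjusted p = 0.016) and 0.24 (SE 0.07, adjusted p = 0.0304). With the fibroblast covariate Ndufv1 was called in neither (adjusted p = 0.103 in 129 and 0.0894 in B6J). In B6J its call was lost in 8 of 26 alternatives, among them upper-quartile scaling, both replicate blocks and leaving out replicate 2 or 3 of either B6J group. Ndufs1 and Ndufv2, which hold iron-sulphur clusters, had log2 fold changes of 0.08 and 0.14 in 129 and 0.01 and 0.04 in B6J and were not called.

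Of the 29 accessory subunits of complex I 11 (37.9%) rose in 129, 5 (17.2%) rose in B6J and none fell. Of all tested genes 17.4% rose and 18.2% fell in 129, and 14.6% rose and 16.5% fell in B6J. The share that rose in B6J was thus near that of all genes. With the fibroblast covariate Ndufs5 and Ndufv3 kept their calls in 129 and none of the 5 did in B6J. With the length trend removed Ndufb10, Ndufs5 and Ndufv3 kept theirs in 129, and Ndufb5 did in B6J. Ndufv3, an accessory subunit of the NADH-oxidising arm, had 109, 96.9 and 95.9 CPM in 129 with the inhibitor, against 71.4, 73.9 and 75.5 CPM with DMSO. In B6J it had 75.1, 76 and 82.5 CPM with the inhibitor, against 69.8, 60.8 and 61 CPM with DMSO. Inhibitor libraries were higher in both backgrounds, by 0.45 (SE 0.08, adjusted p = 0.00105) and 0.29 (SE 0.08, adjusted p = 0.0162). Ndufb10, an accessory subunit of the membrane arm, rose by 0.41 (adjusted p = 0.00206) in 129 and by 0.27 (adjusted p = 0.0245) in B6J. Ndufa11 rose by 0.41 and 0.35, and Ndufb5 by 0.29 and 0.39. Ndufb5 overlaps the opposite-strand gene Mrpl47 over 616 bases.

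Ndufb4 had 9.29, 8.89 and 9.53 CPM in 129 with the inhibitor and 6.72, 5.99 and 7.29 CPM with DMSO, and 8.97, 7.66 and 6.92 CPM in B6J with the inhibitor and 6.38, 5.91 and 4.83 CPM with DMSO. The groups did not overlap in either background, and the log2 fold changes were 0.47 (adjusted p = 0.0216) and 0.46 (adjusted p = 0.0269). The coding sequence of Ndufb4 (387 bases) is identical in the reference to a processed pseudogene on chromosome 15, so its low count is uncertain. Ndufs5 rose in 129 and is described with the backgrounds. The remaining rises in 129 were those of Ndufa3 (0.37), Ndufc1 (0.29), Ndufa5 (0.27), Ndufa6 (0.26) and Ndufa9 (0.22). With replicate number as a block within each background Ndufa6 and Ndufc1 lost their calls (adjusted p = 0.0548 and 0.0793). Ndufa6 and Ndufc1 were lost in 13 and 16 of 26 alternatives. The 18 accessory subunits not called in 129 included Ndufs4, Ndufs6 and Ndufa12, which sit in the matrix arm, with -0.05, 0.08 and -0.01, and Ndufab1, the mitochondrial acyl carrier protein, with -0.11. Ndufa7 had 174, 149 and 142 CPM in 129 with the inhibitor and 142, 157 and 154 CPM with DMSO, and 162, 158 and 175 CPM in B6J with the inhibitor and 175, 155 and 144 CPM with DMSO. Ndufb2 had 15.9, 12.2 and 12.7 CPM in 129 with the inhibitor and 13.8, 11.2 and 12.8 CPM with DMSO, and 12.4, 12.3 and 12.7 CPM in B6J with the inhibitor and 14.1, 13.7 and 13 CPM with DMSO. Neither the highest nor the lowest accessory subunit per length was called.

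The complex I assembly factors moved in both directions. Ndufaf4, which acts early in building the matrix arm, had 29.5, 27.8 and 27.8 CPM in 129 with the inhibitor, against 40.8, 42.8 and 42 CPM with DMSO. In B6J it had 24.2, 22.8 and 21.6 CPM with the inhibitor, against 24.3, 32.2 and 33.8 CPM with DMSO. The groups did not overlap in 129, while in B6J the DMSO replicate 1 lay at the level of the inhibitor libraries, without overlapping them. The log2 fold changes were -0.56 (SE 0.11, adjusted p = 0.00229) and -0.40 (SE 0.11, adjusted p = 0.0168). Ndufaf4 in B6J lost its call in 6 of 26 alternatives. Ndufaf6 fell in B6J, to 14.6, 12.2 and 13.8 CPM with the inhibitor, against 20.6, 17.6 and 19.5 CPM with DMSO (-0.50, SE 0.13, adjusted p = 0.0124). In 129 it had 13.8, 14.1 and 15.7 CPM with the inhibitor and 14.4, 18.4 and 20.4 CPM with DMSO, which overlap (-0.28, adjusted p = 0.112). With the fibroblast covariate Ndufaf6 had -0.18 in B6J (adjusted p = 0.366).

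Ndufaf5, which modifies an arginine of the core subunit Ndufs7, rose instead, with 18.9, 17.6 and 18.8 CPM in 129 with the inhibitor and 12.9, 14.2 and 15.3 CPM with DMSO, and 17.8, 16.7 and 16.3 CPM in B6J with the inhibitor and 14.6, 11.9 and 13 CPM with DMSO. The groups did not overlap, and the log2 fold changes were 0.38 (SE 0.10, adjusted p = 0.0118) and 0.36 (SE 0.10, adjusted p = 0.0169). Ndufaf1, Ndufaf2, Ndufaf3, Ndufaf7 and Ndufaf8 were not called in either response. The summed level of the 8 assembly factors was 148.3 to 154.1 CPM in 129 with the inhibitor and 153.7 to 171.5 CPM in 129 with DMSO, and 149.4 to 156.9 CPM in B6J with the inhibitor and 159.3 to 170.8 CPM in B6J with DMSO.

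Complex II, succinate dehydrogenase, had 1 call of 4 under the inhibitor in 129 and 0 of 4 in B6J by edgeR, where 0 also had an unadjusted p under 0.05 and Sdhb had an adjusted p of 0.18 by DESeq2. Of all tested genes 35.7% were called in either direction in 129 and 31.1% in B6J. Sdhb, the iron-sulphur subunit, had 156, 134 and 142 CPM in 129 with the inhibitor, against 113, 115 and 124 CPM with DMSO, and rose by 0.29 (SE 0.09, adjusted p = 0.0201). Sdha, the flavoprotein, had 287, 286 and 291 CPM in 129 with the inhibitor and 296, 307 and 322 CPM with DMSO (-0.10, adjusted p = 0.247), and 318, 322 and 331 CPM in B6J with the inhibitor and 367, 325 and 324 CPM with DMSO (-0.06, adjusted p = 0.484). The anchor Sdhc had 123, 110 and 116 CPM in 129 with the inhibitor and 95.8, 98.6 and 105 CPM with DMSO (0.22, adjusted p = 0.0621), and 89.1, 90.8 and 90.7 CPM in B6J with the inhibitor and 99, 78.6 and 81.6 CPM with DMSO (0.06, adjusted p = 0.629). The anchor Sdhd had 138, 141 and 146 CPM in 129 with the inhibitor and 141, 130 and 136 CPM with DMSO (0.06, adjusted p = 0.513), and 167, 161 and 165 CPM in B6J with the inhibitor and 183, 159 and 159 CPM with DMSO (-0.02, adjusted p = 0.847). Only Sdhc in 129 had inhibitor libraries above all DMSO libraries among these 4 comparisons of anchors. The rise of Sdhb in 129 was lost with the length trend removed (adjusted p = 0.0595) and with the fibroblast covariate (adjusted p = 0.167). In B6J Sdhb was called higher without replicate 1 of B6J with DMSO (0.24, adjusted p = 0.0393) and without the 4 libraries that stand apart (0.23, adjusted p = 0.00776).

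Whether the backgrounds respond differently was tested as the response in B6J minus that in 129. No member of 75 was called, where 0.71% of all tested genes had a larger and 0.77% a smaller response in B6J (1.48% in either direction); at an unadjusted p under 0.05 there were 0 larger and 1 smaller, and DESeq2 called 0 larger and 1 smaller. The median difference over the members was -0.09 on the log2 scale, beside 0.00 for all tested genes, and 64 of 75 were negative. This shift was not particular to the members. Mitochondrial ribosomal protein genes had a median of -0.13 with 67 of 77 negative, and ATP synthase genes -0.08 with 14 of 17. Medians were -0.07 for TCA cycle genes, -0.001 for assembly factors outside the Nduf names, 0.01 for ubiquinone synthesis and 0.02 for biogenesis regulators. The share of negative values over all tested genes is not given here. The members' median was -0.02 without replicate 1 of B6J with DMSO, -0.03 without replicate 1 of 129 with the inhibitor, and 0.01 without the 4 libraries that stand apart. The 1 smaller response was that of Ndufs5 (-0.63, SE 0.19, adjusted p = 0.158; 0.0304 by DESeq2 and 0.0304 to 0.31 over the 25 alternatives, of which DESeq2's was past the threshold).

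The backgrounds themselves differed in some members. In DMSO 9 members were higher and 3 lower in B6J than in 129, where 10.4% of all tested genes were higher and 10.5% lower (20.9% in either direction). Under the inhibitor 3 were higher and 7 lower, where 8.9% were higher and 9.47% lower (18.4% in either direction). The 2 differences share no library. Ndufs5, Cox7a2l and Sdhd were higher in B6J in both media, and Ndufa5 and Ndufa6 were lower in both.

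Ndufs5, an accessory subunit on the intermembrane side of complex I, differed most. It had 14.1, 14 and 13.4 CPM in B6J with the inhibitor, against 3.13, 3.5 and 2.69 CPM in 129 with the inhibitor, and 12.7, 10.8 and 10.7 CPM in B6J with DMSO, against 1.87, 1.43 and 1.65 CPM in 129 with DMSO. Every B6J library was above every 129 library, with a log2 difference of 2.16 (SE 0.14, adjusted p = 1.35e-06) under the inhibitor and 2.79 (SE 0.15, adjusted p = 2.72e-07) in DMSO. Within 129 it rose under the inhibitor by 0.91 (SE 0.14, adjusted p = 0.000492), and in B6J the change was 0.28 (adjusted p = 0.136).

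A near-identical copy makes the Ndufs5 count uncertain, so both sequences are shown. Ndufs5 lies on chromosome 4 (chr4:123712710-123718202, minus strand, GRCm38, GENCODE M21), and its copy BC002163, a processed pseudogene, lies on chromosome 16 (chr16:42955631-42955949). Their 318 coding bases differ at 2 positions, T81C and A105G, where positions are counted from the first base of the start codon and the Ndufs5 base is given first. Coding bases 61 to 125 follow, with capitals at the 2 differences.
Ndufs5: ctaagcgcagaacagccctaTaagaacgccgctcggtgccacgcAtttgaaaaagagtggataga
BC002163: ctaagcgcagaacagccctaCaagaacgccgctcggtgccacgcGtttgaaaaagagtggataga

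The reference genome is that of C57BL/6J, and how reads with several positions were counted is not given in the sources used here. A part of the copy, or of sequence differences between the backgrounds, in the Ndufs5 counts was not tested. In all 14 members have an annotated copy with at least 95% identity over at least 80% of their coding bases: Cox5b, Cox6c, Cox7b, Cox7c, Ndufa12, Ndufab1, Ndufb3, Ndufb4, Ndufb11, Ndufs3, Ndufs5, Uqcr10, Uqcr11 and Uqcrb. Of these copies 1, the Cox5b copy Gm11273, is among the deposited genes, with 74 to 137 counts per library. The others, BC002163 among them, are not listed there, so whether they drew reads could not be seen.

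Cox7a2l is a relative of subunit 7a that joins complexes III and IV into a supercomplex, and C57BL/6J mice are known to carry an allele for a shorter protein. It had 112, 108 and 113 CPM in B6J with the inhibitor, against 92.4, 73.5 and 74.1 CPM in 129 with the inhibitor. In DMSO it had 131, 111 and 112 CPM in B6J, against 72, 69.2 and 70.6 CPM in 129. All 6 B6J libraries were above all 6 129 libraries, and the log2 difference was 0.47 (SE 0.09, adjusted p = 0.00456) under the inhibitor and 0.74 (SE 0.09, adjusted p = 0.000229) in DMSO, called under every alternative run. The inhibitor itself did not move it past the threshold (0.18, adjusted p = 0.157 in 129; -0.09, adjusted p = 0.51 in B6J). Cox7a2, the ubiquitous subunit 7a, had 163, 138 and 133 CPM in B6J with DMSO and 114, 104 and 111 CPM in 129 with DMSO, without overlap (0.40, SE 0.09, adjusted p = 0.00657). Under the inhibitor it had 149, 143 and 144 CPM in B6J and 131, 111 and 120 CPM in 129, again without overlap (0.27, adjusted p = 0.051). That difference was called in 15 of 25 alternatives, DESeq2, limma-voom and the replicate block among them, with adjusted p from 0.00149 to 0.131 over the 25. Gene counts do not tell alleles of Cox7a2l apart.

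The other members higher in B6J in DMSO were Cox7c (0.36, adjusted p = 0.00912), Ndufa3 (0.34, adjusted p = 0.0295), Cox6b2 (0.33), Sdhd (0.30), Ndufaf2 (0.26) and Uqcrh (0.26). In DMSO Cox7c had 124, 113 and 104 CPM in B6J and 81.3, 91.9 and 93.5 CPM in 129, and Ndufa3 had 49, 43.4 and 43.7 CPM in B6J and 39.2, 34.3 and 34.3 CPM in 129, both without overlap. Sdhd averaged 165 ± 3.31 CPM in B6J with the inhibitor and 142 ± 3.93 CPM in 129 with the inhibitor, and 167 ± 13.8 CPM in B6J with DMSO and 136 ± 5.53 CPM in 129 with DMSO (SD, n = 3). Its difference of 0.21 under the inhibitor (adjusted p = 0.0461) lost its call in 12 of 25 alternatives, and that of Uqcrh in DMSO (adjusted p = 0.0493) likewise in 12 of 25. In DMSO the differences of Ndufa3 and Cox6b2 were each lost in 6 of 25 alternatives and that of Ndufaf2 in 8, the replicate block among them. That of Cox7c was lost with the GC trend removed (adjusted p = 0.0571), and Cox7c has a copy with identical coding bases, so its count is uncertain. Ndufaf2 overlaps the opposite-strand gene B230220B15Rik over 1955 exon bases.

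The complex I subunits lower in B6J were Ndufa5 and Ndufa6 in both media and Ndufa9 and Ndufv3 under the inhibitor. Ndufa5 had 31.9, 32.2 and 33.9 CPM in B6J with the inhibitor, against 52.6, 43.2 and 47.1 CPM in 129 with the inhibitor. In DMSO it had 30, 32.6 and 31.2 CPM in B6J, against 42.8, 38.4 and 37.3 CPM in 129. No B6J library reached a 129 library, and the log2 difference was -0.54 (SE 0.09, adjusted p = 0.00107) under the inhibitor and -0.34 (SE 0.09, adjusted p = 0.0169) in DMSO. Ndufa6 had 56.6, 55.8 and 53.7 CPM in B6J and 81.4, 70.4 and 75.5 CPM in 129 under the inhibitor (-0.45, adjusted p = 0.00503), and 57.3, 49.1 and 45.4 CPM in B6J and 59.4, 63.6 and 67.1 CPM in 129 in DMSO (-0.33, adjusted p = 0.0273). The DMSO difference of Ndufa6 was lost in 7 of 25 alternatives, the length trend among them, and that of Ndufa5 in 3. Ndufa9, near the ubiquinone site, had 89.6, 89.8 and 90.7 CPM in B6J with the inhibitor and 125, 110 and 118 CPM in 129 with the inhibitor (-0.38, SE 0.07, adjusted p = 0.00311), and had -0.18 (adjusted p = 0.102) in DMSO. Ndufv3 had -0.37 under the inhibitor (adjusted p = 0.00627).

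In complex II Sdhb and Sdhc were lower in B6J under the inhibitor, in the medium where Sdhd was higher. Sdhc had 89.1, 90.8 and 90.7 CPM in B6J and 123, 110 and 116 CPM in 129 (-0.37, SE 0.09, adjusted p = 0.011). Sdhb had 115, 116 and 116 CPM in B6J and 156, 134 and 142 CPM in 129 (-0.32, SE 0.09, adjusted p = 0.0229). Neither pair of groups overlapped. Cox7b2 was lower in B6J under the inhibitor, at 0.287 ± 0.0872 CPM in B6J and 0.867 ± 0.196 CPM in 129 (-1.59, SE 0.35, adjusted p = 0.0075), and Ndufaf4 was lower in DMSO, at 30.1 ± 5.09 CPM in B6J and 41.9 ± 0.981 CPM in 129 (-0.47, adjusted p = 0.00981). With the length trend removed 15 members were higher and 1 lower in DMSO, and 13 higher and 7 lower under the inhibitor. Without the 4 libraries that stand apart 11 were higher and 22 lower in DMSO, and 13 higher and 17 lower under the inhibitor. The latter fit keeps the libraries most alike in each group, so more calls can follow from that choice alone. Called under every alternative run were Ndufs5 and Cox7a2l in both media, Cox7a2 in DMSO, and Ndufa5, Ndufa6, Ndufa9, Ndufv3, Sdhc and Cox7b2 under the inhibitor.

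**Figure D5:**
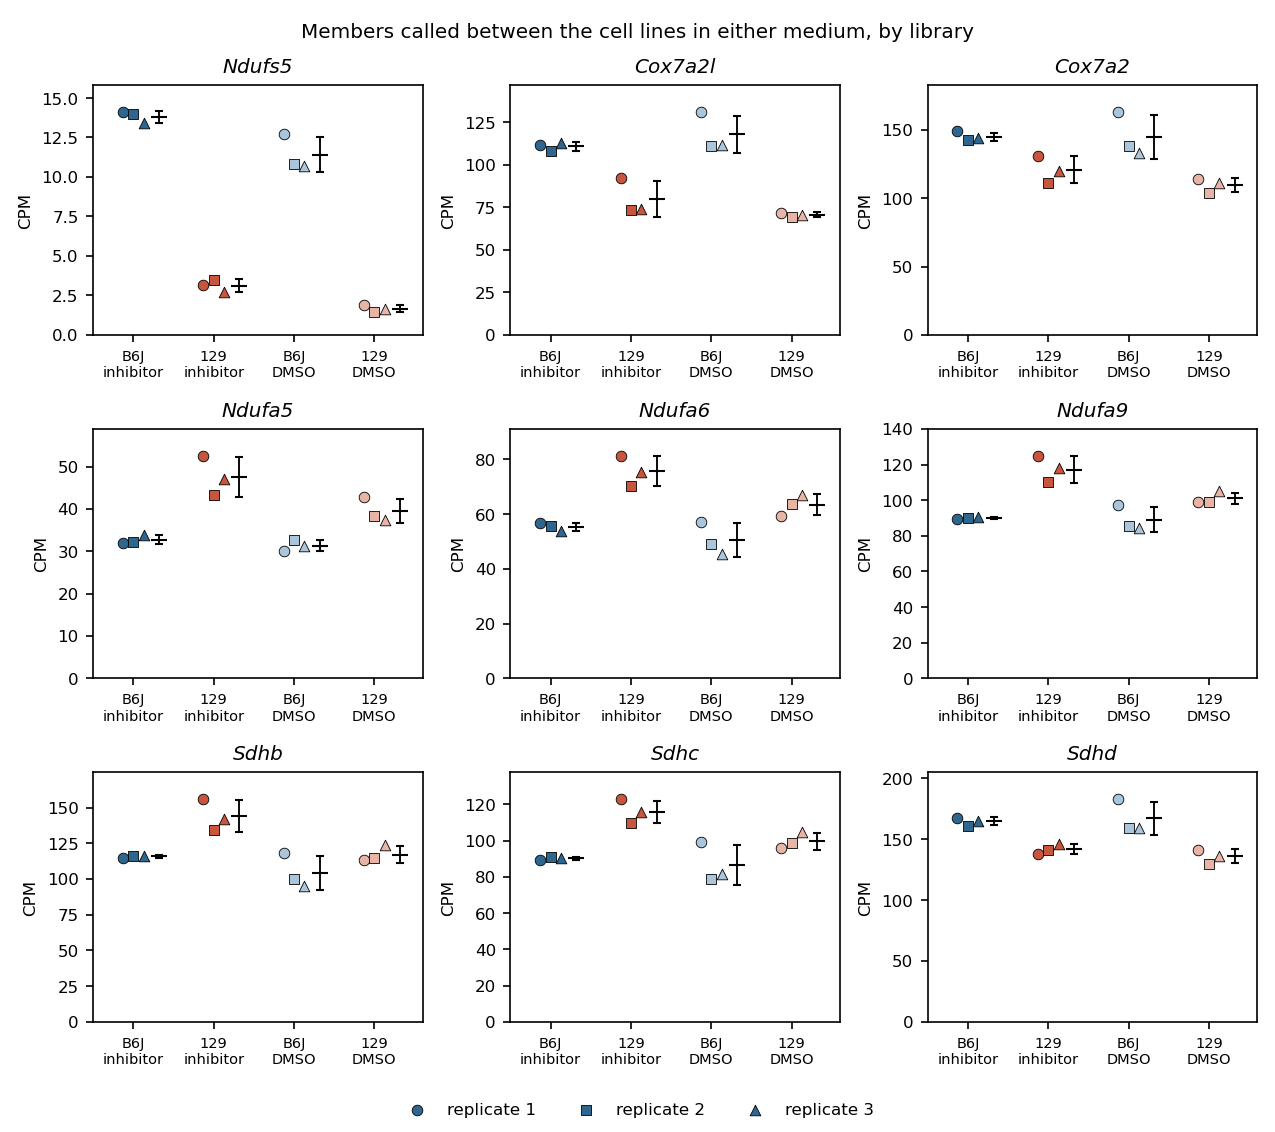
CPM per library (vertical axis of each panel, from 0) of 9 members called between the backgrounds in DMSO or under the inhibitor, in B6J and 129 with the inhibitor and B6J and 129 with DMSO; symbols mark the replicate, and bars the mean ± SD of 3 libraries. Ndufs5 and Cox7a2l lie higher in all B6J libraries, and Ndufa5 lies lower in all of them.

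The lists that follow are to be read beside the 17.4% of all tested genes that rose and 18.2% that fell in 129, and the 14.6% that rose and 16.5% that fell in B6J. Of 17 tested ATP synthase genes 3 (17.6%) rose in 129 and 2 (11.8%) in B6J and none fell, so the share that rose was near that of all genes in 129 and under it in B6J. Atp5g1, which encodes the c-ring subunit of ATP synthase, rose by 0.67 (adjusted p = 0.000104) in 129 and 0.58 (adjusted p = 0.000274) in B6J. Of 39 assembly factors outside the Nduf names 7 (17.9%) rose and 1 (2.56%) fell in 129, and 2 (5.13%) rose and 3 (7.69%) fell in B6J. Timmdc1, a complex I assembly factor, fell in both, by 0.38. Of 77 mitochondrial ribosomal protein genes 18 (23.4%) rose and 3 (3.9%) fell in 129, and 3 (3.9%) rose and 4 (5.19%) fell in B6J.

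Of 13 TCA cycle genes 1 (7.69%) rose and 2 (15.4%) fell in 129, and 0 rose and 4 (30.8%) fell in B6J, where Suclg2, a succinyl-CoA ligase subunit, changed by -0.67 (adjusted p = 0.000182). Of 13 ubiquinone synthesis genes 2 (15.4%) rose and 2 (15.4%) fell in 129, and 2 (15.4%) rose and 1 (7.69%) fell in B6J. Of 17 regulators of mitochondrial biogenesis 1 (5.88%) rose and 3 (17.6%) fell in 129, and 1 (5.88%) rose and 2 (11.8%) fell in B6J. The rise was that of Esrrb, which is also a naive pluripotency factor, with 730 ± 50.6 CPM in 129 with the inhibitor and 397 ± 67.9 CPM with DMSO, and 759 ± 29.9 CPM in B6J with the inhibitor and 396 ± 82.7 CPM with DMSO (SD, n = 3). Tfam, which packages mitochondrial DNA and starts its transcription, fell by 0.22 (adjusted p = 0.0394) in 129 and by 0.27 (adjusted p = 0.0185) in B6J, and the mitochondrial helicase Twnk fell by 0.34 and 0.19.

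Of 10 hypoxia-inducible genes 0 rose and 7 (70%) fell in 129, and 1 (10%) rose and 5 (50%) fell in B6J. Pdk1, a kinase that keeps pyruvate out of the TCA cycle, changed by -0.73 (adjusted p = 9.57e-05) in 129 and -1.47 (adjusted p = 1.05e-06) in B6J, and the glucose transporter Slc2a1 by -0.88 and -1.20. Ndrg1 was the rise in B6J (0.64, adjusted p = 0.00485). Cox4i2 and Ndufa4l2, described above as rising in B6J, are known from other cells as hypoxia-induced and were not on that list.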

How the data were processed

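The authors deposited unnormalised integer read counts for 26742 genes in 12 libraries, made with a stranded mRNA kit per the labels' protocols. Per the submitters' processing notes, the tools were DESeq, HTSeq 0.6.1p1, SAMtools and STAR 2.7.10 and the build was GRCm38 (mm10). The annotation, strand setting and multi-mapping rule are not stated. Of counts between 1 and 20, 70.1 to 73.4% per library were even, so halved counts were tried.

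Genes were tested with edgeR 4.0.16 (R 4.3.3). filterByExpr by group (min.count 10, min.total.count 15) left 16627 genes, including 75 of the 76 members. TMM scaling and 1 quasi-likelihood fit of all 12 libraries with 4 group means followed. The 5 contrasts were the response in each background, their difference, and B6J minus 129 in each medium. Calls are at a Benjamini-Hochberg adjusted p under 0.05 over the 16627 genes, and the script was tested on simulated data. Levels per kb use the median length of a gene's protein-coding transcripts (GENCODE M21, which lists 26725 of the identifiers). Promoters are RefSeq's on GRCm38.p6. Copies were sought with blastn 2.17.0.

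The members, lists and promoters were chosen with earlier results of these data known. Per-library values are given for up to 5 called members with the largest rise and fall per contrast, detected tissue isoforms and their ubiquitous partners, complex II, Cox7a2l, and the highest and lowest member per length of each complex; values of further members were added as examples after they were seen. Other lists name up to 3 called genes with the largest changes or genes of textbook interest. Values of 1 member are not reported here.

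Replicate numbers come from the labels. Same-numbered 129 libraries deviated together from their group means (correlations of 0.442, 0.295 and 0.222 between inhibitor and DMSO). The highest correlations with another number were -0.312, 0.194 and 0.209, so only number 1 stood well apart. The labels do not say what the number stands for, so pairing of the 129 samples is uncertain. In B6J the correlations were -0.188, 0.088 and -0.17. Alternatives covered scaling, filters, DESeq2 1.42.0, limma-voom (limma 3.58.1), halved counts, the replicate block, a fibroblast covariate, length and GC trends, fits of the contrast's groups only, and leaving out each library. Libraries outside a contrast were left out as well, and bear on it mostly through the shared spread. The fit without the 4 libraries that stand apart and the block within each background were added after seeing the data. The former keeps the libraries most alike in each group, so its p-values rest on a spread narrowed by choice.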

Additional observations from a re-analysis of the deposited data

How the results depend on the processing

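Counts of members called moved by over 1.5 times as follows. With the length trend removed 10 rose and 3 fell in 129, 5 rose and 5 fell in B6J, 15 were higher and 1 lower in B6J than in 129 in DMSO, and 13 were higher under the inhibitor. With the fibroblast covariate 6 rose in 129, 6 rose and 0 fell in B6J, and 7 were higher in B6J under the inhibitor. Without the 4 libraries that stand apart 3 fell in 129, 30 rose in B6J, 22 were lower in B6J in DMSO, 13 were higher and 17 lower under the inhibitor, and 1 response was larger in B6J. With only the contrast's groups in the fit 1 fell in B6J, 4 were higher and 1 lower in DMSO, and 7 higher under the inhibitor. With the GC trend removed 6 were lower in DMSO and 8 higher under the inhibitor. DESeq2 gave 8 higher under the inhibitor and 1 smaller response. The causes were not tested.

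With the replicate block over all groups 22 rose and 1 fell in 129 and 14 rose and 2 fell in B6J, and the block within each background gave the same counts. In 129, where same-numbered libraries deviated together, both blocks ended the calls of Ndufa6, Ndufc1 and Uqcrc1 and no other. In B6J, where libraries share only a number, the block within backgrounds ended those of Ndufb10 and Ndufv1, and the block over all groups those of Ndufv1 and Ndufa4l2. Leaving out 1 library at a time gave 14 to 32 rises and 1 to 2 falls in 129, 6 to 22 rises and 0 to 2 falls in B6J, 5 to 11 higher and 1 to 8 lower in B6J in DMSO, 2 to 5 higher and 6 to 12 lower under the inhibitor, and 0 to 0 differences between the responses. In DMSO 5 were higher without replicate 2 of either DMSO group and 6 without replicate 3 of 129 with DMSO or replicate 2 of B6J with the inhibitor; 8 and 6 were lower without replicate 1 of B6J with DMSO and of 129 with the inhibitor, 5 without replicate 2 of 129 with the inhibitor and 1 without replicate 3 of B6J with DMSO. Under the inhibitor 5 were higher without replicate 1 of either DMSO group, and 12 lower without replicate 1 of B6J with DMSO.

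Of 2298 single values recomputed, 9 changed sign and 2031 kept their direction and their side of the threshold. The values belong to 90 member comparisons, those called in the reported fit and some picked by hand. Called changes seldom change sign, so the low number of sign changes follows in part from this choice. The 9 were not called in the reported fit. They were Cox4i1 (-0.016) and Uqcrb (-0.023) in B6J with the length trend removed, Ndufaf6 in 129 with the covariate (0.15), Cox7b2 in B6J without replicate 1 of the inhibitor (-0.014) or replicate 2 of DMSO (-0.01), and Cox6a2 in B6J with the covariate (0.53), without replicate 1 (0.13) or 3 (0.084) of the inhibitor, against -1.2 without replicate 2, and without the 4 libraries (0.15). Members under 1 CPM rest on few reads, and their changes were detectable only when large.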
